A study of Saccharomyces cerevisiae with 12 samples.

Results

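The earliest-copied 10% of wild-type rows is a set of 1079 windows of 1 kb, called rows, out of 10789 rows of the budding yeast genome that could be ranked. Members were the rows with the highest ratio of DNA 20 min after release from G1 arrest over DNA in G1, read in wild-type replicate 1. The ratio was on a log2 scale, centred on the median of its chromosome and averaged over 5 neighbouring rows. Only rows over 30 kb from a chromosome end and without a ratio of exactly 0 were ranked. The highest 10% were kept, which set a threshold of 0.10. That library pair therefore chose the members, and its ratio supports nothing below. Its 0-min library does enter the 0-min depth values. The members are judged in the other 7 ratio columns, mainly those of wild-type replicate 2 and of the eco1 mutant, whose libraries the choice did not use.

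The study sequenced genomic DNA of 12 libraries, 2 for each strain and time. Wild type carried the strain label w303a, and the mutant, strain JG2087, carried the eco1-W216G allele. Both strains were held in G1 with α-factor and sampled in G1 (0 min) and again 20 and 40 min after its release, so every group shares the arrest and the pheromone. The mutant strain is represented by 1 strain identifier, and the labels do not state whether replicates were separate cultures. Depth was 5293237 to 10362815 mapped reads per library, and the median row held 461 to 891 reads. Counting error contributes an SD of 0.070 to 0.089 (log2) to a ratio at such a depth, and 0.031 to 0.040 to a mean of 5 rows.

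Eukaryotic chromosomes are copied from many origins, which fire in a reproducible order during S phase. DNA near an origin that fires early is present in more copies in a population of cells in early S phase than DNA that is copied later, so the ratio to G1 rises around it. In budding yeast, centromeres are known to be copied early. Eco1 is the acetyltransferase that modifies the Smc3 subunit of cohesin as forks pass, which makes cohesion between sister chromatids stable. No annotation of origins was used here, so membership was not set against known origins.

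One library stood apart from its partner. The 40-min replicates of eco1 had a correlation of -0.37 across 10784 rows (Pearson's r, rows next to a lost stretch of chromosome XV left out), against 0.50 for wild type at either time and 0.63 for the eco1 20-min replicates. Eco1 40-min replicate 2 followed eco1 20-min replicate 1, with which it shares no library, at 0.65. Eco1 20-min replicate 1 in turn had a correlation of -0.47 with wild-type 40-min replicate 2. These values are a description, since the columns share the local depth of the genome. Whether that library was taken at the labelled time was not tested, and its values carry this doubt. The main 40-min values of eco1 are therefore given for each library or with each left out.

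In wild-type replicate 2 the members were again high at 20 min. Their median was 0.15, with quartiles of 0.079 and 0.22, against -0.013 for the 9710 other rows. Of the 1079 members, 972 (90.1%) stood above 0, which 47.6% of all rows did. The top 10% of wild-type replicate 2 took in 666 members (61.7%), where a list unrelated to that replicate would have 10% of its rows. The replicate used for the choice and this one share no library. Their top 10% of rows thus overlapped by 61.7% of each list.

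In eco1 the same rows stood near the genome level at 20 min. The member median was 0.025 in replicate 1 (quartiles -0.034 and 0.084) and 0.033 in replicate 2 (quartiles -0.024 and 0.080). The other rows had medians of -0.0058 and -0.0079. The top 10% of eco1 took in 269 members (24.9%) in replicate 1 and 272 (25.2%) in replicate 2, and 61.9% and 65.9% of the members stood above 0. The eco1 20-min replicates shared 39.1% of their own top 10% of rows. Both eco1 libraries thus held the members slightly above the other rows, and both stood far below the wild-type value of 0.15.

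At 40 min the members had come down in wild type. Their median was 0.054 in replicate 1, which shares its G1 library with the column used for the choice, and 0.067 in replicate 2. In eco1 it was 0.034 in replicate 1 and -0.021 in replicate 2. The top 10% of rows took in 26.4% of the members in wild-type replicate 2, 25.9% in eco1 replicate 1 and 8.16% in eco1 replicate 2. Eco1 40-min replicate 2 was the only one of the 8 columns in which the member median lay below that of the other rows (-0.0077).

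**Figure D1:**
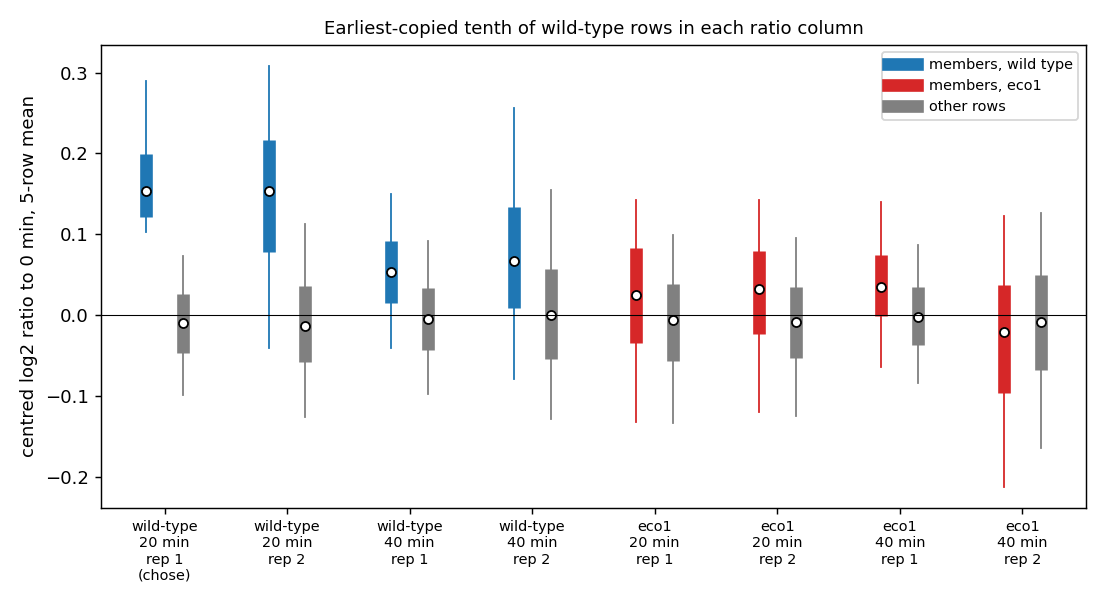
Centred log2 ratio to the 0-min library (5-row mean, vertical axis) in each of the 8 ratio columns, for the 1079 members (blue in wild type, red in eco1) and the 9710 other rows (grey). Circles are medians, thick bars run between the quartiles and thin lines from the 5th to the 95th percentile of rows. The members reach 0.15 in wild-type 20-min replicate 2 and 0.025 and 0.033 in the eco1 20-min columns.

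Height within the member set carried over to wild-type replicate 2. Ordered by the choosing column and divided into 5 classes of 215 or 216 rows, the members had medians of 0.24, 0.17, 0.14, 0.10 and 0.078 in wild-type 20-min replicate 2. The share in that column's top 10% went from 92.1% in the highest class to 34.4% in the lowest. In eco1 20-min replicate 1 the medians of the highest and lowest classes were 0.055 and 0.0038, and in replicate 2 they were 0.035 and 0.015. In eco1 20-min replicate 2 the second class, at 0.043, stood above the first.

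Rows just inside the threshold were the rows at XI 440001-441000, XI 306001-307000 and XVI 780001-781000 (sacCer3), at 0.10 each in the choosing column. They stood at -0.084, -0.0052 and 0.032 in wild-type replicate 2. Just outside were III 79001-80000, IV 567001-568000 and VII 418001-419000, with 0.25, 0.037 and 0.15 there. The threshold thus separates rows that the other wild-type replicate does not separate in the same order. The next 10% of rows had a median of 0.023 in wild-type 20-min replicate 2, and the lowest 10% had one of -0.025.

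**Figure D2:**
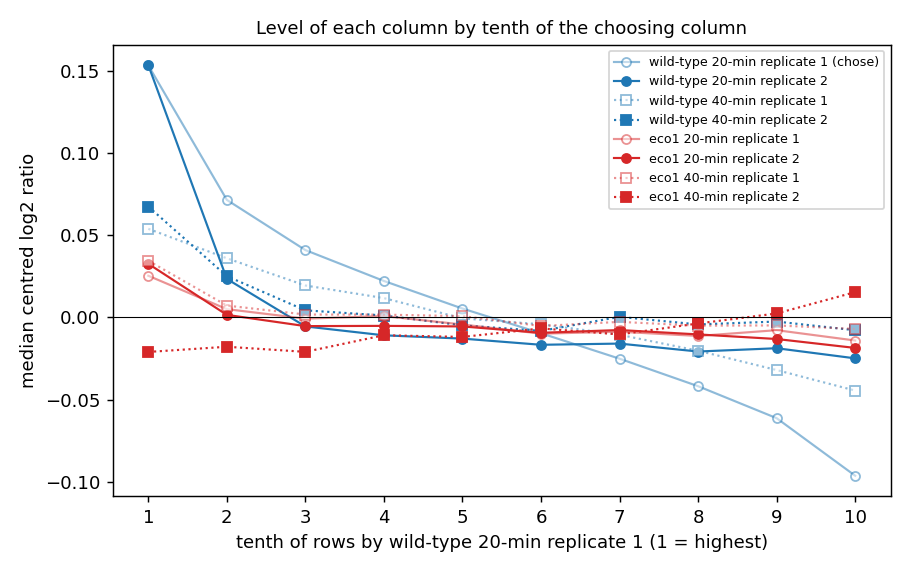
Median centred log2 ratio of each column (vertical axis) for rows grouped in steps of 10% by the choosing column, from the highest (1) to the lowest (10). Blue lines are wild type, red lines eco1, circles with solid lines 20 min, squares with dotted lines 40 min, and filled symbols replicate 2. In wild-type 20-min replicate 2 the level drops from 0.15 in the highest 10% to 0.023 in the next, and in the 2 eco1 20-min columns the highest 10% stand at 0.025 and 0.033.

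Members that were high in both wild-type replicates were set against the rest of the set in eco1. The 666 members in the top 10% of both wild-type 20-min columns had eco1 20-min medians of 0.023 and 0.030. The other 413 had 0.029 and 0.037, although their median in wild-type 20-min replicate 2 was 0.056 against 0.20. The share in the top 10% of eco1 was 25.8% for the former and 23.5% for the latter in 20-min replicate 1, and 23.4% and 28.1% in 20-min replicate 2. At 40 min the former stood at 0.042 and the latter at 0.018 in eco1 replicate 1, and at -0.041 and 0.0092 in eco1 replicate 2. In wild-type 40-min replicate 2, which shares a G1 library with the column that divides them, the 2 subsets stood at 0.098 and 0.030.

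The members were next compared between strains row by row, at the same time after release. No measure of S-phase progress was used. A later or less even entry into S phase therefore cannot be told apart from a change in the order of copying. At 20 min both eco1 values lay below that of wild-type replicate 2 in 814 members (75.4%), where 43.1% of all rows did so. Both lay above it in 149 members (13.8%), where 38.8% of all rows did so. The median difference of eco1 minus wild type was -0.12 over the members and -0.0055 over all rows. It was negative in 882 members. The choice used neither wild-type replicate 2 nor eco1, so counting error in the choosing column does not enter this difference. It was made on a wild-type column, however, and favours rows high in whatever wild-type libraries share. Across rows that column had a correlation of 0.50 with wild-type 20-min replicate 2, and of 0.15 and 0.18 with the eco1 20-min columns. The choice thus favours a negative difference, and no set chosen on eco1 was compared.

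The 5-row mean of each row was tested by limma over all 10789 rows, with wild type represented by replicate 2 alone and its spread taken from eco1. With Benjamini-Hochberg adjustment, 4 members were lower in eco1 at 20 min and 0 higher, where 0.0371% of all rows were lower and 0% higher. All 4 lay in the block of FRE3. There 3 of them are part of a stretch of chromosome XV that eco1 lost at 20 and 40 min relative to 0 min. The running mean of the other takes it in. Without the lost rows 0 were lower. At an unadjusted p under 0.05 limma gave 379 members lower (35.1%), against a background of 7.44%, and 7 members higher, against 3.99%. Without eco1 20-min replicate 1 the median difference of the members was -0.116, and without its replicate 2 it was -0.124. Each of these compares 1 library with 1 library, so they show no spread at 20 min. The main fit shares its spread with the 40-min columns, in which the eco1 replicates disagree. A fit on the 20-min columns alone, chosen after seeing the data, has 1 residual degree of freedom. Its prior degrees of freedom were infinite, so all rows were given a common spread and are in effect ranked by the size of their difference. It called 500 members lower and 14 higher at an adjusted p under 0.05 (limma), with backgrounds of 13.1% and 7.46%. Leaving out either eco1 40-min library amounts to the same fit. The count of rows past the threshold thus rests on which columns set the spread. The median difference of -0.12 is the same with or without the 40-min columns by construction, since they do not enter it.

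Local sequencing depth moved with these values. At 0 min the members held 92.7% and 92.9% of the median depth in the wild-type libraries and 94.7% and 95.8% in the eco1 libraries. Across all rows, the eco1 20-min columns rose with the 0-min depth of the other strain (Spearman's rho of 0.58 and 0.52), whereas wild-type 20-min replicate 2 fell with it (-0.31). Eco1 40-min replicate 2 had 0.70, eco1 40-min replicate 1 had -0.40 and wild-type 40-min replicate 2 had -0.53. Using the other strain's library keeps counting error in the ratio's own denominator out of these values. They are across rows, which are not independent replicates.

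Within 5 bands of like 0-min depth, members were therefore set against other rows of the same band. In wild-type 20-min replicate 2 the members exceeded the others by 0.16 on average over bands (0.14 to 0.17). In eco1 they did so by 0.064 (0.042 to 0.077) in replicate 1 and by 0.066 (0.040 to 0.079) in replicate 2. Without the bands the same values were 0.17, 0.031 and 0.041. The excess of the members in eco1 was larger within these bands, and the highest band in eco1 still lay below the lowest in wild type. Bands for eco1 rest on both wild-type 0-min libraries, and 1 of these is the denominator of the choosing column. The choice favours low depth in it, and 435 members lay in the lowest band. The larger excess in eco1 is therefore not independent of the choice. At 40 min the excess over bands was 0.047 in wild-type replicate 2 and 0.023 and 0.021 in eco1. Once the median of 20 depth bands was taken out of each column, a setting chosen after seeing the data, the median strain difference of the members was -0.087 at 20 min. The part of local depth in the remaining difference was not tested.

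**Figure D3:**
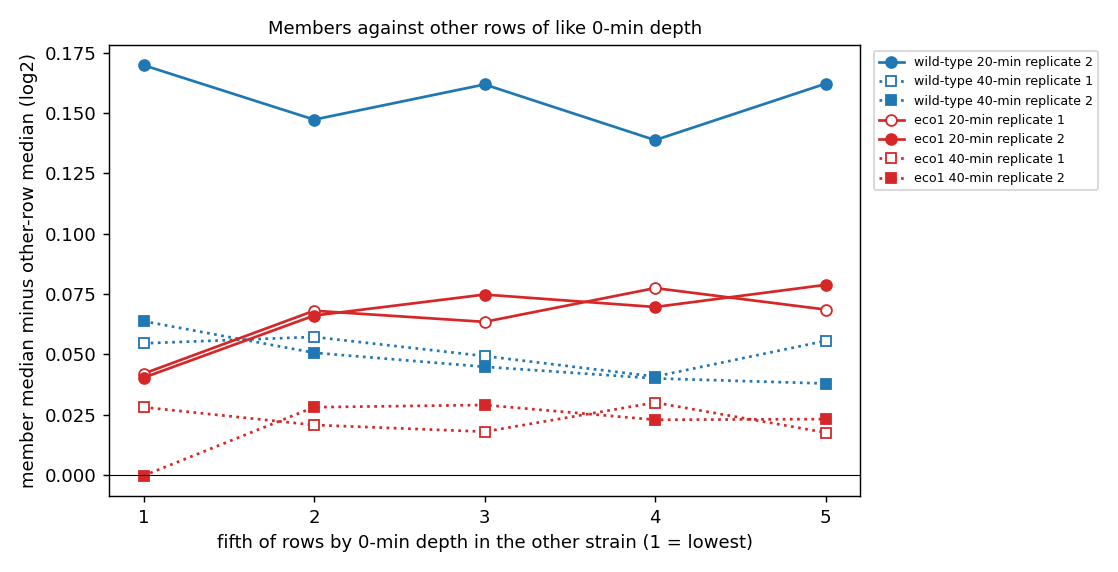
Median of the members minus median of other rows (log2, vertical axis) within 5 classes of rows by the 0-min depth of the other strain (horizontal axis, 1 = lowest depth). Blue is wild type and red eco1, circles are 20 min and squares 40 min, and filled symbols are replicate 2. In every class wild-type 20-min replicate 2 (0.14 to 0.17) lies above both eco1 20-min columns (0.040 to 0.079).

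At 40 min the strains were closer. Both eco1 values lay below that of wild-type replicate 2 in 612 members (56.7%), where 39.6% of all rows did so, and above it in 196 (18.2%), where 32.5% did so. Taken alone, eco1 replicate 1 lay below in 66.6% of the members and 52.9% of all rows, and replicate 2 in 71.9% and 54.2%. The median difference was -0.062 over the members. It was -0.088 without eco1 40-min replicate 1 and -0.033 without its replicate 2. With the depth bands removed and both libraries kept it was -0.023. By limma, 4 members were lower at an adjusted p under 0.05, where 0.0371% of all rows were. These were the same 4 rows at the lost stretch, and 0 were lower without it. At an unadjusted p under 0.05, 170 members were lower, where 6.78% of all rows were, and 9 were higher, where 2.40% were. Without eco1 40-min replicate 1 these became 470 lower and 101 higher, with backgrounds of 24.97% and 17.6%, and without its replicate 2 they were 169 and 26, with 7.31% and 3.51%.

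Between 20 and 40 min the members fell in wild-type replicate 2 by a median of 0.078, while the other rows had a median change of 0.012. Of the members, 815 (75.5%) had a lower value at 40 min, which 47.5% of all rows had. In eco1 replicate 1 the median change of the members was 0.0052 and 47.9% of them had a lower value at 40 min, as did 47.9% of all rows. In eco1 replicate 2 the median change was -0.056 and 83.0% had a lower value, against 53.1% of all rows. The eco1 replicates thus differed in the change of the members over time. Wild type enters the fit below as 1 pair, replicate 2, with its spread taken from the eco1 pairs. Its calls, or their absence, are therefore not a replicated wild-type result. By limma on differences paired within a strain and replicate, 0 members changed in wild type, where 0.0371% of all rows were higher, and 125 were lower and 9 higher at an unadjusted p under 0.05, where 1.67% and 2.02% of all rows were. In eco1, 0 members changed (limma, background 0%), with 11 lower and 9 higher at an unadjusted p under 0.05, where 0.167% and 0.593% of all rows were. The difference between the strains in this change also passed in 0 rows by limma. At an unadjusted p under 0.05 it had 31 members higher, where 0.38% of all rows were, and 2 lower, where 0.167% were.

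The members lay in clusters. They formed 188 blocks, runs of members whose neighbours start at most 2 kb apart, and 125 blocks of at least 3 rows held 999 of the 1079 members. The median length of these 125 was 8 rows, and the lengths ran from 3 to 21. The 63 blocks of under 3 rows held 80 members with a median of 0.0083 in wild-type 20-min replicate 2. The 496 members in blocks of 3 to 9 rows had 0.14 there, and the 503 in blocks of 10 rows or more had 0.18. Short runs of the choosing column were thus not high in the other replicate. The 5-row mean by itself makes neighbouring rows alike, so rows of a block are not independent.

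Of the 125 blocks, 119 had a mean above 0 in wild-type 20-min replicate 2, 73 in eco1 20-min replicate 1 and 85 in eco1 20-min replicate 2. At 40 min 106 had one in wild-type replicate 2, 92 in eco1 replicate 1 and 38 in eco1 replicate 2. Every row lay in the top 10% of wild-type 20-min replicate 2 in 28 blocks, and no row did in 17. At 20 min both eco1 means were below wild-type replicate 2 in 114 blocks and above it in 5. At 40 min these were 80 and 14. For single rows the shares over the genome were 43.1% and 38.8% at 20 min and 39.6% and 32.5% at 40 min, and no such share was computed for runs of rows. Single rows above 0 made up 47.6% of all rows in wild-type 20-min replicate 2, and 48.0% and 47.0% in the eco1 20-min columns. At 40 min they made up 53.0% in wild-type replicate 2, and 51.5% and 45.8% in eco1. By count, the blocks were above 0 nearly throughout in wild-type replicate 2 at 20 min, and less uniformly so in eco1.

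The shape around the block tops differed between columns as well. The top of a block is its highest row in the choosing column. In wild-type 20-min replicate 2 the mean of single rows was 0.17 within 2 kb of the top, 0.014 at 6 to 10 kb and -0.0088 at 20 to 25 kb. The highest row within 10 kb lay at most 2 kb from the top in 60.8% of the blocks, where an even spread would give 23.8%. In the eco1 20-min columns the mean within 2 kb was 0.0048 and 0.0074, and the highest row was that close in 22.4% of the blocks in each. At 4 kb from the top, the eco1 20-min columns reached 0.033 and 0.046 on one side and 0.044 and 0.048 on the other. Eco1 at 20 min thus had a low centre between higher flanks. The rows within 2 kb are those whose running mean in the choosing column placed the top. From -3 kb to -2 kb relative to the top, that column rose from 0.076 to 0.22. Over this step the eco1 20-min columns fell from 0.046 to 0.0016 and from 0.041 to 0.011. Wild-type 20-min replicate 2 went from 0.14 to 0.15. The part of this choice, or of local depth, in the eco1 shape was not tested. Eco1 40-min replicate 1 had a centred rise of 0.044 with the highest row close to the top in 40.0% of blocks, and wild-type 40-min replicate 2 had 0.093 and 39.2%. Eco1 40-min replicate 2 had -0.066 within 2 kb and 9.6%.

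**Figure D4:**
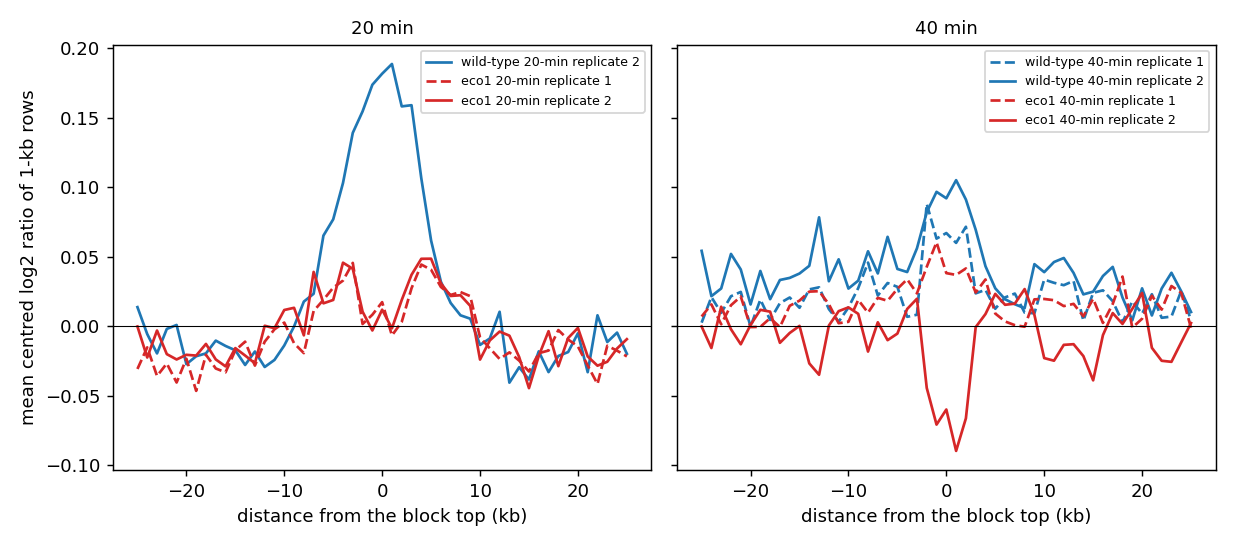
Mean centred log2 ratio of single 1-kb rows (vertical axis) by distance from the tops of the 125 blocks (horizontal axis, kb), at 20 min (left) and 40 min (right). Blue is wild type, red eco1, dashed lines replicate 1 and solid lines replicate 2, and the choosing column is not drawn. Wild-type 20-min replicate 2 averages 0.17 within 2 kb of the tops, the eco1 20-min columns 0.0048 and 0.0074, and eco1 40-min replicate 2 dips to -0.066.

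Members were more common near centromeres. The centromere of each chromosome was placed between the last annotated gene of the left arm and the first of the right arm. Of the 315 ranked rows within 10 kb of it, 110 (34.9%) were members, and of the 307 rows at 10 to 20 kb 123 (40.1%) were. Beyond 200 kb the share was 6.58%. Their membership comes from the choosing column and is a description. In wild-type 20-min replicate 2 the members within 10 kb had a median of 0.15, as did the members beyond 200 kb. In eco1 at 20 min those within 10 kb stood at -0.0013 and 0.036, and those at 10 to 20 kb at 0.039 and 0.055. Distance to the chromosome end was alike for members and other rows, with medians of 224 and 218 kb. Protein-coding genes covered a median of 74.1% of a member row and 80.9% of another row.

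The share of members differed between chromosomes, from 6.76% on IV to 20.4% on III. It was also high on VI (16.9%), V (14.3%) and X (13.4%), and low on IX (7.82%) and XVI (8.01%). On every chromosome the member median of wild-type 20-min replicate 2 was above both eco1 20-min medians. The smallest gap lay on chromosome I, with 0.12 in wild type and 0.092 and 0.077 in eco1. The widest lay on IV, with 0.17 against 0.0091 and -0.0015. The share of members with both eco1 values below wild-type replicate 2 ran from 63.9% on XI to 82.3% on IV. Over all ranked rows of a chromosome it ran from 37.6% on VIII to 51.8% on III, and it was 43.4% on XI and 41.7% on IV. Centring removes the mean level of a chromosome, so a whole chromosome raised in eco1 is not seen in the centred values. Reads of the VPS8 block (I 144001-150000) rose from 4840 at 0 min to 5833 at 20 min in eco1 replicate 1. In eco1 replicate 2 they rose from 4131 to 6279. The median row went from 818 to 636 and from 686 to 685. In the BOI1 block (II 57001-70000) reads went from 10483 to 8725 and from 8613 to 9344. Whether chromosome copy number differed between the eco1 0-min and later libraries was not tested.

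The core histone genes, which encode the proteins that package DNA, lie as 4 divergent pairs, and 23 of the 30 ranked rows within 2.5 kb of them were members. All 8 rows at HTA1-HTB1 (IV 914317-915928) were members, with means of 0.28 and 0.25 in the wild-type 20-min replicates and 0.025 and -0.026 in those of eco1. All 8 rows at HTA2-HTB2 (II 235394-236887) were members, with 0.16 and 0.25 in wild type and 0.045 and 0.054 in eco1. At HHT1-HHF1 (II 255373-256741), with 7 of 7 rows, the values were 0.28 and 0.25, and 0.11 and 0.075. The first value of each wild-type pair belongs to the column used for the choice. HHT2-HHF2 (XIV 575640-577038) had 0 of 7 rows in the set and stood at -0.043 and -0.076 in wild type and -0.099 and -0.11 in eco1. The 3 member pairs, which encode H2A with H2B and, once, H3 with H4, were each higher in wild-type replicate 2 than in both eco1 20-min libraries. In the blocks named by the gene nearest their top, these pairs belong to CRF1, HTA2 and IPP1. The HTA2 block lies across the midpoint placed for the centromere of II, and the nearest row of the IPP1 block is 10.3 kb from it. Within 10 kb of a centromere 34.9% of ranked rows were members, and at 10 to 20 kb 40.1% were. The part of this position in the histone rows was not tested.

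At 40 min the member rows at core histone genes stood at 0.10 in wild-type replicate 2, 0.10 in eco1 replicate 1 and -0.059 in eco1 replicate 2. The eco1 replicates thus lay on both sides of 0 there.

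Genes for tRNAs, transcribed by RNA polymerase III, lay within 2.5 kb of 328 members (30.4%), against 13.0% of all rows. Of the 125 blocks, 50 held a tRNA gene. Members near a tRNA gene stood at 0.16 in wild-type 20-min replicate 2 and at 0.0044 and 0.012 in eco1. Members away from tRNA genes stood at 0.15 there and at 0.037 and 0.040 in eco1. Rows near a tRNA gene that were not members were low in eco1 too, at -0.035 and -0.025, against 0.0035 in wild-type 20-min replicate 2. At 40 min members near a tRNA gene stood at 0.11 in wild-type replicate 2, 0.053 in eco1 replicate 1 and -0.046 in eco1 replicate 2.

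Ribosomal protein genes, which encode the protein parts of the ribosome, were less common among members. They lay within 2.5 kb of 38 members (3.52%), against 7.66% of all rows. These members stood at 0.086 in wild-type 20-min replicate 2 and at -0.038 and -0.030 in eco1. The eco1 values resembled those of the other rows near such genes, at -0.037 and -0.033.

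The 12 block tops highest in wild-type 20-min replicate 2 are described next, named by the gene nearest the top. They were picked by that column, which favours a negative difference of eco1 minus wild type at them. None passed limma's adjusted threshold at 20 min, with adjusted p = 0.376 for each. The highest lay at YDL007C-A on chromosome IV, in a block (431001-444000) that also holds RPT2, a subunit of the proteasome, and APC11, a subunit of the anaphase-promoting complex. It stood at 0.23 and 0.46 in the wild-type 20-min replicates and at -0.096 and -0.091 in eco1. At 40 min it stood at 0.44 in wild-type replicate 2, 0.23 in eco1 replicate 1 and -0.31 in eco1 replicate 2. The difference at 20 min was -0.55 (SE 0.17), the most negative of the 125 tops.

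PRP39 (XIII 178001-185000) encodes a component of the U1 particle of the spliceosome. Its top stood at 0.27 and 0.37 in wild type and at -0.16 and -0.076 in eco1 at 20 min. ORC3 (XII 138001-144000), a subunit of the origin recognition complex, stood at 0.16 and 0.29 against -0.13 and -0.15. Its wild-type value was higher at 40 min, at 0.42 in replicate 2. The eco1 values at 40 min were 0.15 at ORC3 in replicate 1 and -0.26 in replicate 2. The block of HIT1 (X 534001-549000), which also holds the thymidylate kinase gene CDC8, stood at 0.32 and 0.34 against -0.074 and -0.049 at 20 min. At these tops both eco1 20-min values lay below 0 and far from wild type.

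Other tops stayed above 0 in both eco1 libraries. SKI6 (VII 884001-896000) encodes a subunit of the exosome, the RNA-degrading complex. Its top stood at 0.33 and 0.34 in wild type and 0.10 and 0.040 in eco1 at 20 min. At 40 min it had come down to 0.033 in wild-type replicate 2. IFM1 (XV 273001-283000), a mitochondrial translation initiation factor, stood at 0.33 and 0.34 against 0.089 and 0.069. ECM9 (XI 440001-461000) named the longest block, with 21 rows starting beside the centromere of chromosome XI, and stood at 0.27 and 0.30 against 0.067 and 0.049. NCE103 (XIV 555001-563000), a carbonic anhydrase, stood at 0.27 and 0.32 against 0.0037 and 0.099.

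The remaining tops of the 12 lay between these. PMC1 (VII 479001-490000), a vacuolar calcium pump, stood at 0.23 and 0.33 in wild type and -0.012 and -0.026 in eco1. CLC1 (VII 831001-839000), the clathrin light chain, stood at 0.16 and 0.32 against -0.068 and -0.010. The eco1 replicates lay on both sides of 0 in the other 2 blocks. YGR039W (VII 571001-576000), whose block holds the MAP kinase gene KSS1, stood at 0.18 and 0.34 against -0.11 and 0.084. Its 4 rows together held 629 reads in wild-type 20-min replicate 2, where the median row held 470, so counting error is larger there. FRM2 (III 68001-79000), whose block holds HIS4 of histidine synthesis, stood at 0.25 and 0.29 against 0.080 and -0.0035.

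**Figure D5:**
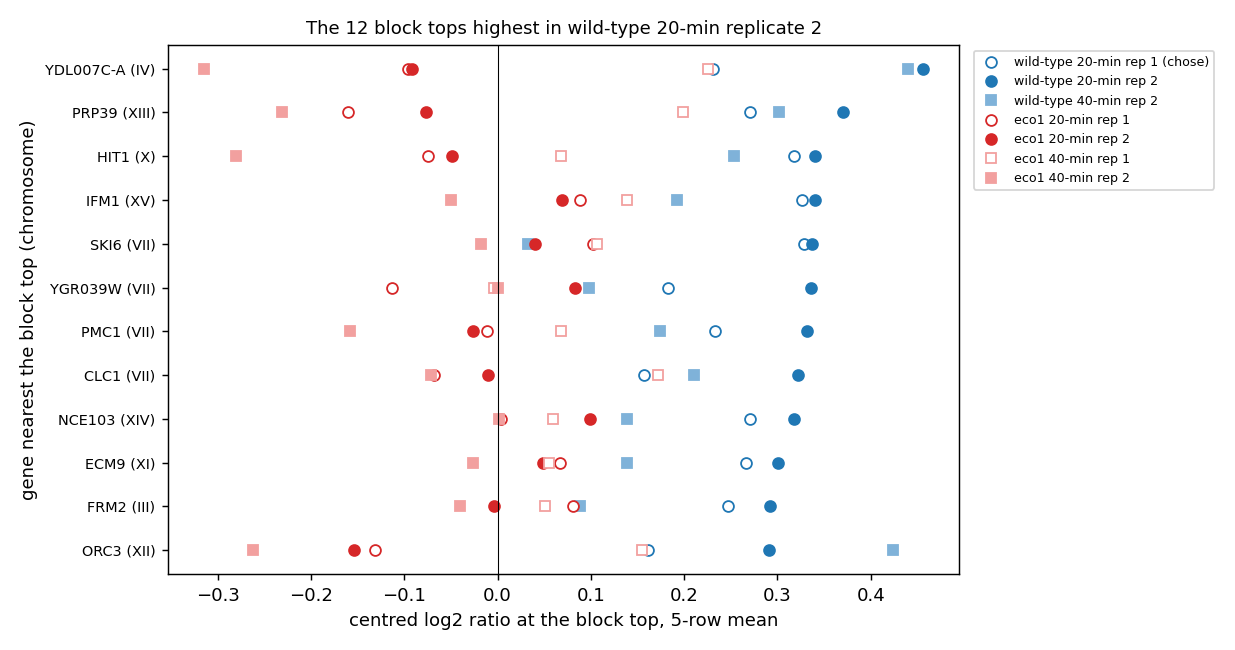
Centred log2 ratio (5-row mean, horizontal axis) at the 12 block tops highest in wild-type 20-min replicate 2, named by the nearest gene and its chromosome. Blue marks are wild type and red marks eco1, circles are 20 min and squares 40 min, and filled marks are replicate 2. At all 12 tops both eco1 20-min values lie below both wild-type 20-min values. Of these, replicate 1 chose the members and replicate 2 the tops, which favours this order. Over all ranked rows, 43.1% had both eco1 20-min values below wild-type replicate 2. Eco1 40-min replicate 1 lies up to 0.23 (YDL007C-A).

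The 5 tops with the most negative difference at 20 min included YDL007C-A, PRP39 and ORC3. Another was FRE3 (XV 1048001-1059000), which encodes a ferric reductase, at 0.27 in wild-type 20-min replicate 2 and -0.25 and -0.19 in eco1. This block runs into the lost stretch. Its rows from 1056001 to 1059000 had eco1 ratios of -1.20 to -6.44 at 20 min, while wild-type replicate 2 had 0.12 to 0.24 there. The lowest of these need reads in the 0-min libraries taken as denominators, and few or none at 20 min. Why the eco1 libraries differ there was not tested. The running means of 5 members take in a lost row. Without them the member mean at 20 min was 0.021 and 0.026 in eco1 against 0.0080 and 0.014 with them. The last, YLR227W-B (XII 591001-594000), is a Ty1 element gene of a multicopy family, so reads of other copies may be counted there. It stood at 0.27 in wild-type replicate 2 and at -0.17 and -0.13 in eco1, a difference of -0.42 (SE 0.072, limma adjusted p = 0.258).

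At 5 tops the difference was most positive, from 0.045 to 0.099, with limma adjusted p from 0.589 to 0.841. TRP1 (IV 458001-467000), a gene of tryptophan synthesis, stood at 0.10 in wild-type 20-min replicate 2 and at 0.13 and 0.21 in eco1. Both eco1 values were higher, and the difference lay within its error (0.072, SE 0.096). At NUP100 (XI 309001-314000), a nuclear pore protein, wild-type replicate 2 stood at -0.062 and eco1 at 0.0034 and 0.072. EFT1, which encodes translation elongation factor 2, stood at -0.088 in wild-type replicate 2, and AMS1, a vacuolar mannosidase, at 0.0014. GRX7, a glutaredoxin, stood at 0.060 in wild-type replicate 2 and 0.18 and 0.034 in eco1. At NUP100, EFT1 and AMS1 the wild-type replicates themselves disagreed, since the choosing column had 0.18, 0.12 and 0.14. Over the whole AMS1 block, however, both wild-type replicates had means near each other, 0.15 and 0.16, and eco1 had -0.074 and -0.034. The direction at the AMS1 top was thus opposite to that over its block.

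The next longest blocks were those of HEF3 (XIV 599001-619000, 20 rows), a translation elongation factor, and HXT2 (XIII 279001-297000, 18 rows), a hexose transporter. Over the rows of the HXT2 block the mean was 0.043 in wild-type 20-min replicate 2 and 0.089 and 0.086 in eco1. At its top wild-type replicate 2 stood at 0.20 and eco1 at 0.038 and 0.040. The HEF3 block had a mean of 0.14 in wild-type replicate 2 and 0.031 and 0.022 in eco1. The longest block, that of ECM9, had a mean of 0.15 in wild-type replicate 2 and 0.030 and 0.040 in eco1. The 3 longest blocks thus spanned a wide range in wild-type replicate 2.

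Blocks across the midpoint placed for a centromere were HTA2 (II), MPH1 (IX), a DNA helicase, and NOC3 (XII), which acts in ribosome assembly. Their tops stood at 0.27, 0.21 and 0.18 in wild-type 20-min replicate 2. In eco1 the HTA2 top stood at 0.047 and 0.086, the MPH1 top at -0.048 and 0.057 and the NOC3 top at -0.012 and 0.0054. All 3 were lower in both eco1 20-min libraries than in wild-type replicate 2, with limma adjusted p of 0.409 to 0.451.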

How the data were processed

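Genomic DNA of 12 libraries (wild type and eco1-W216G, 0, 20 and 40 min, 2 each) was sequenced after Nextera XT preparation, per the labels' protocols. CASAVA 1.8.2, Bowtie and the build sacCer3 are named in the submitters' processing notes, without roles or parameters. The authors deposited 8 ratio columns and 8 smooth columns for 12165 rows of 1000 bp. The ratios are log2 values as deposited. They fit log2 of RPM plus 1 in the later library over a 0-min library, where RPM is reads scaled to library size. The 20- and 40-min ratios of a strain and replicate fit a shared denominator. The column labels do not name it, so it was taken as the 0-min library of that strain and replicate. The deposited smooth columns are a score on another scale and were not used. Scaling to library size makes each ratio relative, so that total DNA gain between times is not seen.

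Of 12079 nuclear rows, 449 rows with a ratio of exactly 0 and then 777 in the outermost 30 kb were taken out, which left 10853. Of these, 10789 had a full 5-row running mean. Limma 3.58.1 in R 4.3.3 was fitted on 6 columns in 4 groups, leaving out both wild-type replicate 1 columns, with Benjamini-Hochberg adjustment over all rows and a threshold of 0.05. It had 2 residual and 7.27 prior degrees of freedom. Changes over time were fitted on differences of columns of the same strain and replicate, in which the shared 0-min library cancels. That fit had 1 residual and infinite prior degrees of freedom, so all rows were given a common spread. Read numbers per row were recovered from pairs of ratios, and the recovery was tested on simulated data. Gene positions came from RefSeq's table of assembly R64.

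Named blocks had at least 3 rows and were the 12 highest tops in wild-type 20-min replicate 2, the 5 tops with the most positive and the 5 with the most negative strain difference, the 3 longest, and those with a core histone gene or a centromere. The members, lists and tests were chosen with earlier results of these data known. Origins and Ty elements were not analysed here. P-values reflect only the spread among these libraries, which may be technical. Same-numbered eco1 and wild-type columns are not known to be paired, and their replicate differences had a correlation of 0.024 at 20 min and -0.42 at 40 min.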

Additional observations from a re-analysis of the deposited data

How the results depend on the processing

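The members' share in the top 10% of wild-type 20-min replicate 2, 61.7%, was 31.2% with single rows, 58.3% with the top 5% and 53.5% with the top 20% of rows. The median strain difference of the members stayed negative in all settings run. At 20 min it was -0.11 with genome-median centring, -0.096 with an 11-row mean and -0.12 once chromosomes I, III, V and IX were left out. It was -0.13 with a replicate block, -0.11 with the replicate block crossed and -0.087 with the 0-min depth bands removed. At 40 min it was -0.023 with the bands removed. With all 8 columns it was -0.13 at 20 min, but that setting takes in the choosing column, which by itself favours a negative difference. Counts by limma depended on the setting. At 20 min the 4 rows past the threshold became 207 with genome-median centring, 440 with a replicate block, 31 with it crossed, 2219 on the 20-min columns only, 12 with depth bands removed, 0 without the rows lost in eco1, and 4 to 2219 with single libraries left out. For members lower in eco1 these were 19, 203, 24, 500, 7, 0 and 4 to 500. At 40 min the 4 rows became 163, 450, 41, 7 (40-min columns only), 0 without the lost rows and 7 to 3562 with single libraries left out, and the members lower 8, 114, 19, 5, 0 and 5 to 412. Without eco1 40-min replicate 1 the members lower at 40 min were 412, and without its replicate 2 they were 36. Over time, the 0 rows of eco1 became 5 with single rows, and the 0 rows of the strain difference became 4. The 4 rows of wild type became 1 with genome-median centring, 14 with single rows, 18 with each column divided by its SD, and 0 with all 8 columns, with an adjusted p under 0.01 or with no replicate block. The cause of these moves was not tested. Of 147 alternatives, 89 stayed the same.

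The replicate block ties same-numbered columns of both strains, and with 1 wild-type replicate it uses only the eco1 pairs to estimate the number's effect. Crossing the numbers, which was tried because of the correlation of -0.42 at 40 min, gave 31 rows at 20 min and 41 at 40 min. A fit with 1 wild-type library per time cannot show the spread of wild type. With an eco1 library of a time left out as well, that time compares 1 library with 1 library. The spread then comes from the other time. Counting error of 0.031 to 0.040 per 5-row mean limits single rows, not medians over the members.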
